A study of Homo sapiens with 6 samples.

Results

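The genes described here are 10 that drive or control entry into mitosis: the kinase genes CDK1, PLK1, AURKA, AURKB, TTK and NEK2, the cyclin genes CCNA2, CCNB1 and CCNB2, and the transcription factor gene FOXM1. They were taken by symbol from a table of 35615 gene symbols. All 10 were in it, and all 10 were among the 14543 genes tested, so the filter on low counts removed none. K562 cells, a human erythroleukaemia line that carries the BCR-ABL1 fusion kinase, were nucleofected in lots of 5 M cells with 500 pmol of a synthetic hsa-miR-92a-1-5p mimic (the miR92a libraries, n = 3) or of a negative-control mimic (the scramble libraries, n = 3). All cultures then received imatinib, an inhibitor of the ABL1 kinase, at 1 µM, started 4 h after the transfection and kept for 24 h until RNA extraction. Every culture therefore carried a mimic and imatinib, and cultures without them were not analysed here. The libraries are labelled as biological replicates of 1 cell line, but the labels do not say how the cultures were separated, so p-values measure the spread between these libraries.

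Cells enter mitosis when CDK1, bound to cyclin A or cyclin B, is freed of inhibitory phosphate and phosphorylates many proteins at once. PLK1 and AURKA feed that activation and build the spindle, AURKB and TTK check that chromosomes attach to it correctly, and NEK2 separates the centrosomes. Their genes are transcribed mainly in G2 phase, under the MuvB complex with B-MYB and FOXM1, and FOXM1 is itself one of the genes so controlled. K562 cells depend on BCR-ABL1 for proliferation, which imatinib restrains.

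The table gives estimated read counts per gene, which are shown here as CPM, the count scaled to a common library total with TMM factors between libraries. Library totals were 0.704 M counts in miR92a 1, 26.0 M in miR92a 2 and 25.6 M in miR92a 3, against 24.8 to 25.4 M in the scramble libraries. A single count stood for 1.36 CPM in miR92a 1 and for 0.0382 to 0.0416 CPM elsewhere. The replicate 3 libraries stood apart from replicates 1 and 2. Counts of scramble 3 differed from scramble 1 and scramble 2 with a chi-square per gene of 48.4 and 43.0, against 4.83 between scramble 1 and 2, and miR92a 3 differed from miR92a 2 with 43.8. The sources label the cells as myeloblasts. The 8 erythroid markers summed to 8356 to 17080 CPM in miR92a and 10390 to 17360 CPM in scramble libraries, and 6 granulocyte and monocyte markers to 1.36 to 2.97 CPM and 1.38 to 4.53 CPM, with MPO, the defining myeloblast peroxidase, at 0 in all libraries. The 4 lymphoid markers summed to 5.44 to 7.94 CPM in miR92a and 7.45 to 7.61 CPM in scramble libraries, with MS4A1 at 0. The mimic itself is not measured by this table, so delivery could not be checked in these counts.

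The mature strand that the mimic copies is shown first, because its seed defines which transcripts it could pair with. It comes from the MIR92A1 hairpin (chr13:91351324-91351346, plus strand, RefSeq on GRCh38.p14), and capitals mark the seed, bases 2 to 8.
hsa-miR-92a-1-5p: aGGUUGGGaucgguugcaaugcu
The seed pairs with CCCAACC (a 7mer-m8), which becomes an 8mer when an A follows it, while CCAACCA is a 7mer-A1 and CCAACC a 6mer. None of the 10 genes held a 7mer or 8mer in its longest annotated 3′ UTR (GENCODE v29, GRCh38), whereas 2173 of the 12885 tested genes with a 3′ UTR did (16.9%). The UTRs searched ran from 138 bases in AURKB to 1378 bases in CCNB2, and the median over those tested genes was 1330 bases. NEK2 alone had a 6mer, 43 bases into a 3′ UTR of 654 bases. The share of tested genes with a 6mer in the 3′ UTR was not counted, so this match is not shown to be unusual. In the coding sequence PLK1 had an 8mer and FOXM1 a 7mer-m8, and the other 8 genes had neither, against 21.9% of 12948 tested genes with at least a 7mer there. TTK and FOXM1 each also held 1 coding 6mer, which is not shown. The NEK2 site and the coding 7mer and 8mer are given on the gene's own strand with the match in capitals, because they are the 3′ UTR match and the longest coding matches of the set. They lie at chr1:211663365-211663394 (minus strand), chr16:23683921-23683950 (plus strand) and chr12:2859346-2859375 (minus strand) of GRCh38.
NEK2 3′ UTR: atgtaatattaCCAACCtttaaagactgat
PLK1 coding sequence: cccactgcccgCCCAACCAttaacgagctg
FOXM1 coding sequence: gggcttaggtcCCCAACCcggtgtgtctcg
A match is a run of letters and was not tested as a site of pairing.

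The comparison asked how transcripts of the mitotic engine differed between miR92a and scramble cells, both under imatinib. Of the 10 genes 9 were on the higher side in miR92a libraries and NEK2 was on the lower side. Summed over the 10 genes, the level was 1398 ± 43.5 CPM in miR92a libraries and 1102 ± 146 CPM in scramble libraries (mean ± SD, n = 3 each). When the replicate number entered the fit as a block, 7 genes rose (CDK1, CCNA2, CCNB1, CCNB2, PLK1, AURKA and AURKB), with folds of 1.23 to 1.49, and none fell (quasi-likelihood test of edgeR, p adjusted by Benjamini-Hochberg over all genes, threshold 0.05), where 4.57% of all tested genes rose. The pairing behind the block is not stated in the labels and was read from the data. Without the block none of the 10 passed, where 0.433% of all tested genes were called higher. In that fit 8 of the 10 had an unadjusted p under 0.05 on the higher side, against 6.0% of tested genes. DESeq2 called 2 (AURKA and CCNA2), where it called 1.54% of the 9184 genes to which it gave an adjusted p higher. With limma-voom none was called, where 0.639% of all tested genes were called higher. The median log2 fold change of the 10 genes was 0.35 without the block and 0.38 with it, beside -0.01 for all tested genes in both fits. In bulk RNA, more cells in the phases that transcribe these genes and more of the RNA per cell cannot be told apart.

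**Figure D1:**
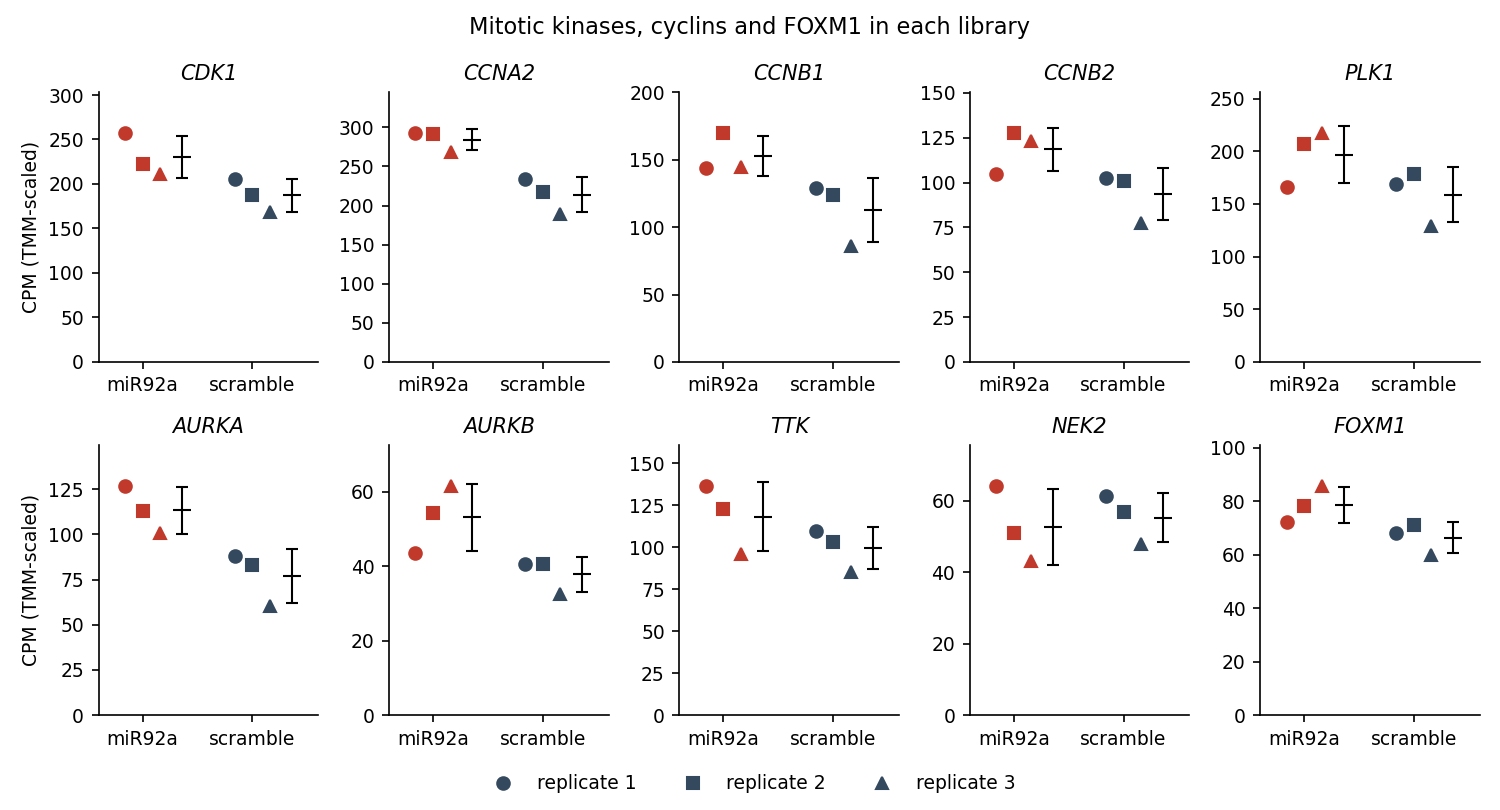
TMM-scaled CPM (vertical axes, from 0) of the 10 genes in each miR92a and scramble library, with symbols for the replicate number and a black bar for the mean ± SD (n = 3). The 3 miR92a values lie above the 3 scramble values for 7 genes, and scramble 3 is the lowest scramble library for every gene.

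The cyclin-dependent kinase CDK1 (chr10:60778331-60794852, GRCh38, the build of all positions given), the catalytic core of the mitotic engine, had 257, 223 and 212 CPM in miR92a 1, 2 and 3, against 205, 187 and 169 CPM in scramble 1, 2 and 3. The groups did not overlap, although miR92a 3 and scramble 1 lay close together. Its log2 fold change was 0.28 ± 0.11 (SE, adjusted p = 0.309, edgeR) without the block and 0.30 ± 0.08 (adjusted p = 0.0168) with it. Cyclin A2 (CCNA2, chr4:121816444-121823933), which partners CDK2 in S phase and CDK1 in G2, had 293, 291 and 268 CPM in miR92a libraries, against 234, 218 and 189 CPM in scramble libraries. All 3 miR92a values lay well above the scramble values, and the fold change had the lowest p of the 10 genes without the block (0.41 ± 0.10, adjusted p = 0.112, edgeR). With the block CCNA2 rose by 0.43 ± 0.08 on the log2 scale (adjusted p = 0.00117). CCNA2 shares 254 of its 2798 annotated exonic bases with EXOSC9 on the opposite strand, and since the strand setting is not given in the sources used here, reads of the shared end are uncertain.

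Cyclin B1 (CCNB1, chr5:69167010-69178245), the principal cyclin that carries CDK1 into the nucleus, had 144, 169.8 and 144 CPM in miR92a libraries, against 129, 124 and 85.8 CPM in scramble libraries. The groups did not overlap, and scramble 3 was well below the other libraries. The log2 fold change was 0.45 ± 0.16 (adjusted p = 0.271, edgeR) without the block and 0.50 ± 0.10 (adjusted p = 0.00174) with it. Cyclin B2 (CCNB2, chr15:59105078-59125045), found mainly at the Golgi apparatus, had 105, 128 and 123 CPM, against 103, 101 and 77.2 CPM. The lowest miR92a library, miR92a 1, was level with scramble 1, and the separation came from the other libraries. CCNB2 rose with the block by 0.41 ± 0.10 (adjusted p = 0.0119, edgeR), and without it the value was 0.37 ± 0.13 (adjusted p = 0.276). The CPM ratio of CCNB1 to CCNB2 within a library was 1.38, 1.33 and 1.17 in miR92a 1, 2 and 3 and 1.25, 1.23 and 1.11 in scramble 1, 2 and 3. The ratio was lowest in the replicate 3 library of each group, and the groups overlapped.

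Aurora kinase A (AURKA, chr20:56369389-56392337), which matures centrosomes and activates PLK1, had 127, 113 and 100.5 CPM in miR92a libraries, against 87.9, 82.8 and 60.1 CPM in scramble libraries. The groups were clearly apart, and the lowest miR92a value exceeded the highest scramble value. AURKA had the largest blocked change of the 10 genes, a log2 fold change of 0.58 ± 0.09 (adjusted p = 2.56e-04, edgeR), and one of 0.53 ± 0.16 (adjusted p = 0.178) without the block. Aurora kinase B (AURKB, chr17:8204733-8210600), the kinase of the chromosomal passenger complex that corrects faulty attachments, had 43.5, 54.3 and 61.4 CPM, against 40.5, 40.6 and 32.4 CPM. It rose with the block by 0.57 ± 0.13 (adjusted p = 0.00509, edgeR), with 0.54 ± 0.15 (adjusted p = 0.144) without it. The miR92a 1 value rested on 32 counts, and its exact 95% Poisson interval of 29.8 to 61.5 CPM, which covers counting error only, spans all 3 scramble values. AURKA has 2 annotated processed pseudogenes, AURKAP1 and AURKAP2, and reads could be shared with them.

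Polo-like kinase 1 (PLK1, chr16:23677656-23690367), which triggers mitotic entry and acts at centrosomes and kinetochores, had 166, 207 and 217 CPM in miR92a libraries, against 169, 179 and 129 CPM in scramble libraries. The groups overlapped, since miR92a 1 lay below scramble 1 and 2, with an exact 95% Poisson interval of 138 to 198 CPM on 122 counts. PLK1 rose with the block (0.36 ± 0.11, adjusted p = 0.0341, edgeR) and had 0.33 ± 0.15 (adjusted p = 0.369) without it. TTK (chr6:80003887-80042527), the MPS1 kinase that starts the spindle checkpoint, had 136, 123 and 95.7 CPM in miR92a libraries, against 109.7, 103 and 85.4 CPM in scramble libraries. The groups overlapped through miR92a 3, and TTK did not pass with the block (0.23 ± 0.09, adjusted p = 0.0949, edgeR) or without it (0.21 ± 0.15, adjusted p = 0.617).

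NEK2 (chr1:211658657-211675630), the centrosome-splitting kinase, had 63.9, 51.0 and 43.0 CPM in miR92a libraries, against 61.2, 56.7 and 47.9 CPM in scramble libraries. The groups overlapped throughout. The log2 fold change was -0.14 ± 0.16 (adjusted p = 0.776, edgeR) without the block and -0.11 ± 0.10 (adjusted p = 0.558) with it. NEK2 had the only negative fold change of the 10 genes, and its sign was negative without each library in turn (-0.25 to -0.01). Its processed pseudogene NEK2P4, with which reads could be shared, held 100 counts over all libraries, against 6601 for NEK2. Relative to NEK2, PLK1 was at a CPM ratio of 2.60, 4.04 and 5.06 in miR92a 1, 2 and 3, against 2.77, 3.15 and 2.69 in scramble 1, 2 and 3. The ratio was above every scramble value in miR92a 2 and 3 and below them in miR92a 1.

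FOXM1 (chr12:2857681-2877155), the forkhead factor that transcribes G2 genes, had 72.1, 78.4 and 85.6 CPM in miR92a libraries, against 68.2, 71.2 and 60.0 CPM in scramble libraries. The groups did not overlap, but miR92a 1 and scramble 2 nearly met. The log2 fold change was 0.27 ± 0.11 without the block and 0.28 ± 0.10 with it, and neither passed (adjusted p = 0.336 and 0.0876, edgeR). FOXM1 shares 781 of 4899 annotated exonic bases with ITFG2 on the opposite strand, so reads there are uncertain too. Of the 10 genes, 7 had non-overlapping groups with miR92a above scramble, a pattern shown by 9.73% of tested genes. The exceptions were PLK1, TTK and NEK2. In AURKB, CCNB1, CCNB2 and FOXM1 the lowest miR92a value was that of the shallow miR92a 1. Its exact 95% Poisson interval began at 29.8, 118, 82.7 and 54.0 CPM, below the highest scramble value of each gene. For these genes the lack of overlap thus lies within the counting error of 1 library.

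**Figure D2:**
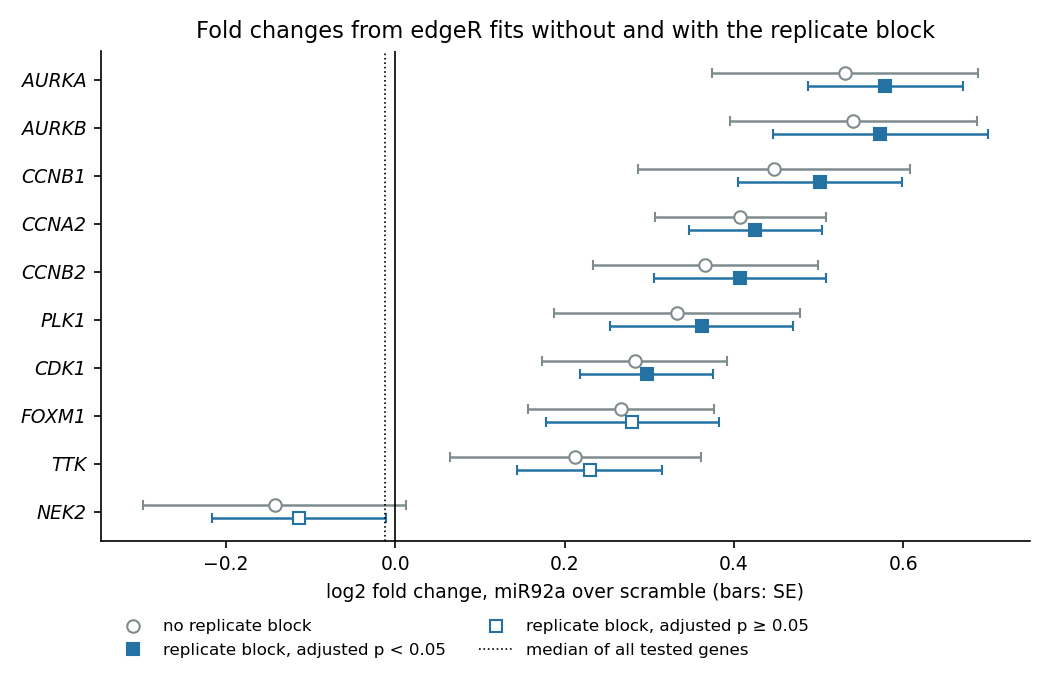
Log2 fold change of miR92a over scramble (horizontal axis) with its SE from edgeR without (circles) and with (squares) the replicate block, filled where the adjusted p was under 0.05; the dotted line is the median of all tested genes. AURKA and AURKB lie furthest to the right at 0.57 to 0.58 with the block, and NEK2 is the only gene left of 0.

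The size of the difference varied with the replicate number. Within same-numbered pairs the median log2 CPM difference of the 10 genes was 0.13 in pair 1, 0.29 in pair 2 and 0.59 in pair 3. The median over all tested genes was -0.07, 0.00 and -0.01 in the same pairs. Of the 10 genes 9 were positive in each pair. The negative gene was PLK1 in pair 1 (-0.03) and NEK2 in pairs 2 and 3 (-0.15 and -0.16). In pair 3 AURKB reached 0.92, PLK1 0.75, CCNB1 0.75 and AURKA 0.74, while CDK1 was at 0.32, 0.25 and 0.33 and TTK at 0.31, 0.25 and 0.16 in pairs 1, 2 and 3. So the kinases AURKB and PLK1 and the B cyclins spread most over the pairs, and CDK1, TTK and CCNA2 spread least. Counting error in the shallow miR92a 1 enters this spread through pair 1. There AURKB, PLK1, CCNB1 and CCNB2 rest on 32, 122, 106 and 77 counts, and CDK1, TTK and CCNA2 on 189, 100 and 215. How much of the spread it makes up was not tested.

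The wide difference in pair 3 went with a low scramble 3. All 10 genes were lower in scramble 3 than in the mean of scramble 1 and 2, by a median log2 difference of -0.32 (range -0.56 for CCNB1 to -0.22 for CDK1), beside 0.00 for all tested genes. In miR92a 3 the same difference had a median of -0.12, and it ran from -0.43 for TTK to 0.34 for AURKB, with 6 of 10 genes lower, beside 0.06 for all tested genes. Without scramble 3 the median fold change of the 10 genes was 0.23 on the log2 scale, and without pair 3 the blocked median was 0.27. In blocked fits that left out 1 pair at a time, AURKA, AURKB, CCNB1 and CCNA2 passed in all 3 (edgeR, adjusted p = 1.47e-06 to 0.0354). Without pair 3 AURKB had 0.36 and CCNB2 0.27 on the log2 scale, both still called, and PLK1 was no longer called (0.15, adjusted p = 0.281, edgeR). CCNB2 was not called without pair 2 (adjusted p = 0.070, edgeR), where its log2 fold change was 0.43, against 0.41 with all pairs. CDK1 was not called without pair 1 or pair 2 (adjusted p = 0.0864 and 0.171, edgeR), with log2 fold changes of 0.30 and 0.32, against 0.30 with all pairs, while TTK was called without pair 3 (0.26, adjusted p = 0.0178). What set scramble 3 apart was not tested.

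**Figure D3:**
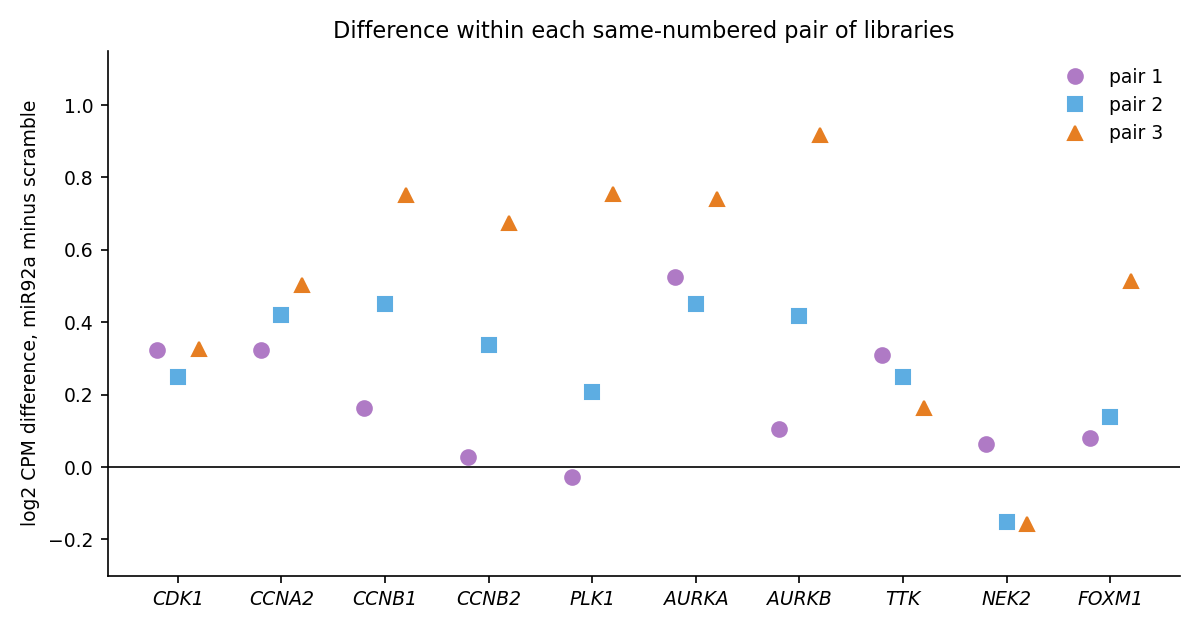
Difference in log2 CPM (vertical axis) between the miR92a and the scramble library of the same replicate number, 3 points per gene. Pair 3 gives the highest value for AURKB, PLK1, CCNB1, CCNB2, AURKA, CCNA2, FOXM1 and, by a small margin, CDK1, whereas TTK is highest in pair 1 and NEK2 is negative in pairs 2 and 3.

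Within the set, levels were compared per kilobase of the longest annotated protein-coding transcript, because longer transcripts give more reads. CDK1 was highest, at 118 ± 12.2 CPM per kb in miR92a and 96.1 ± 9.37 CPM per kb in scramble libraries (SD, n = 3). CCNA2 followed with 102 ± 4.83 and 76.4 ± 8.02 CPM per kb, then PLK1 with 88.3 ± 12.1 and 71.3 ± 11.9, and CCNB1 with 70.4 ± 6.79 and 52.1 ± 10.9. AURKA had 50.4 ± 5.78 and 34.2 ± 6.58, CCNB2 47.3 ± 4.82 and 37.4 ± 5.69, and AURKB 42.3 ± 7.16 and 30.2 ± 3.73 CPM per kb. The lowest were TTK (31.7 ± 5.52 and 26.7 ± 3.37), NEK2 (24.7 ± 4.96 and 25.9 ± 3.16) and FOXM1 (22.6 ± 1.93 and 19.1 ± 1.67). The order was the same in both groups except for AURKA and CCNB2, which changed places. Among neighbours in the scramble order, in which CCNB2 precedes AURKA, the ranges over scramble libraries did not overlap for CDK1 against CCNA2 and for NEK2 against FOXM1, and they overlapped for the others. The isoforms that K562 cells use were not measured, so these levels rest on the annotated length.

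Against the mean profile of the other 9 genes, Pearson's r over the 6 libraries was 0.74 to 0.98 for 9 genes and 0.08 for NEK2. The 5 genes outside the set whose log2 CPM followed its mean profile most closely, of 7774 with a mean of at least 20 CPM, were MFSD12, ARL2, RAD23B, LMNB2 and BIRC5 (r = 0.990 to 0.995 over the 6 libraries, which the genes share). MFSD12 had 65.3, 68.3 and 62.9 CPM in miR92a and 57.2, 57.4 and 44.6 CPM in scramble libraries. BIRC5, which encodes survivin of the chromosomal passenger complex, had 151, 145 and 142 CPM in miR92a and 129.6, 126 and 105 CPM in scramble libraries. Each had its lowest value in scramble 3, where the mean profile of the set was also lowest, so this follows from how these genes were picked.

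The other genes of the pathway were read from 5 lists of 56 symbols, 51 of which were tested. With the block 17 of the 51 rose and 2 fell (edgeR, adjusted p under 0.05), where 4.57% of all tested genes rose and 6.7% fell. Without it 1 was higher and none lower (0.433% and 0.976% of all tested genes), and 15 and 1 at an unadjusted p under 0.05 (6.0% and 7.51% of all tested genes). DESeq2 called 5 higher and none lower. Over all genes it called 141 higher, 1.54% of the 9184 genes to which it gave an adjusted p, and 247 lower. With limma-voom 1 was called higher and none lower, against 93 (0.639%) and 182 of all tested genes. Most of the genes that rose were partners of the kinases or reported FOXM1 targets.

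Among 13 tested partners that activate, place or serve the kinases, 8 rose and none fell with the block, and the median log2 fold change was 0.40. GTSE1, a microtubule-binding protein of G2 and mitosis, was the only pathway gene called in both fits, with 50.3 ± 3.64 CPM in miR92a and 31.4 ± 3.05 CPM in scramble libraries (SD, n = 3). It rose by 0.70 ± 0.12 without the block (adjusted p = 0.0321, edgeR) and by 0.74 ± 0.12 with it. With 1 library left out of the fit without the block, GTSE1 passed only without scramble 3 (adjusted p = 0.0487), and had 0.0797 to 0.159 otherwise. GSG2, which encodes haspin, the histone H3 kinase that recruits the chromosomal passenger complex, had 22.1 ± 2.67 and 14.3 ± 2.43 CPM and rose by 0.61 ± 0.16 with the block. CDCA8, the borealin subunit of that complex, rose by 0.50 ± 0.10, and TPX2, the spindle factor that activates AURKA, by 0.42 ± 0.08 with the block. With the block, subunits of the complex thus moved the same way as its kinase AURKB, and TPX2 the same way as AURKA. The TPX2 groups overlapped, since miR92a 3 (408 CPM) lay below scramble 1 (414 CPM). Of the 13 partners 11 had positive values without the block, and SGO1 (-0.13) and CEP192 (-0.02) had negative ones. In blocked fits that left out 1 pair at a time, CDCA8 and TPX2 were called each time, and GSG2 was not called without pair 3. Of the other subunits that rose, INCENP was not called without pair 3, and BIRC5 was called only with all pairs.

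Of 14 genes reported as FOXM1 targets 8 rose and none fell with the block (median 0.43). The largest of these were CENPA, the centromeric histone H3 variant, with 55.8 ± 10.6 CPM in miR92a and 32.3 ± 5.00 CPM in scramble libraries (0.74 ± 0.12 with the block), and TROAP (0.55 ± 0.10). HMMR, a spindle-assembly protein, rose by 0.49 ± 0.08 and the microtubule-depolymerising kinesin KIF2C by 0.45 ± 0.08. All 14 had positive values in the fit without the block, beside 48.3% of tested genes. UBE2C was near the floor, with 0, 31 and 35 counts in miR92a 1, 2 and 3 against 16, 23 and 16 in scramble 1, 2 and 3. GAS2L3 had 17.7 CPM on 13 counts in the shallow miR92a 1, and 7.10 and 3.29 CPM in miR92a 2 and 3. FOXM1 itself did not pass without the block or with it, as given above.

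Of 8 genes of the switch that sets CDK1 activity, 1 rose and 1 fell with the block (median 0.25). Over all tested genes 4.57% rose and 6.7% fell with the block. Neither gene passed without it (adjusted p = 0.135 for WEE1 and 0.390 for ENSA, edgeR). WEE1, the kinase that places the inhibitory phosphate on CDK1, had 184 ± 9.77 CPM in miR92a and 147 ± 5.88 CPM in scramble libraries and rose by 0.33 ± 0.08 (adjusted p = 0.0112, edgeR with the block). ENSA, which when phosphorylated by the Greatwall kinase inhibits the phosphatase that opposes CDK1, had 179 ± 40.3 and 229 ± 9.42 CPM and fell by 0.31 ± 0.10 on the log2 scale (adjusted p = 0.0381, edgeR with the block). Without pair 1 or pair 2 ENSA was not called, and WEE1 was not called without pair 2. The activating phosphatases CDC25A, CDC25B and CDC25C did not pass with all libraries in either fit. Without pair 1, in which miR92a 1 had 3 counts of CDC25C, that gene was called (0.66, adjusted p = 0.0136, edgeR with the block), against 0.43 with all pairs.

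None of the 6 MuvB and B-MYB genes passed with or without the block, 0 had an unadjusted p under 0.05 without it (edgeR), and DESeq2 and limma-voom called 0. The histone-binding subunit RBBP4 had 385 ± 29.4 CPM in miR92a and 366 ± 31.8 CPM in scramble libraries, and MYBL2, which encodes B-MYB, had 281 ± 28.1 and 258 ± 9.11 CPM. Among 13 listed relatives of the kinases and cyclins, 10 were tested, and AURKC, CCNA1 and CCNB3 were too low. With the block none rose and 1 fell, where 4.57% of all tested genes rose and 6.7% fell. It was NEK1, a kinase of primary cilia and DNA damage responses, with 50.9 ± 5.95 CPM in miR92a and 68.1 ± 9.39 CPM in scramble libraries. Its log2 fold change was -0.39 ± 0.10 with the block (adjusted p = 0.0136, edgeR), and it did not pass without the block (adjusted p = 0.261). NEK1 was not called without pair 1 or pair 2.

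**Figure D4:**
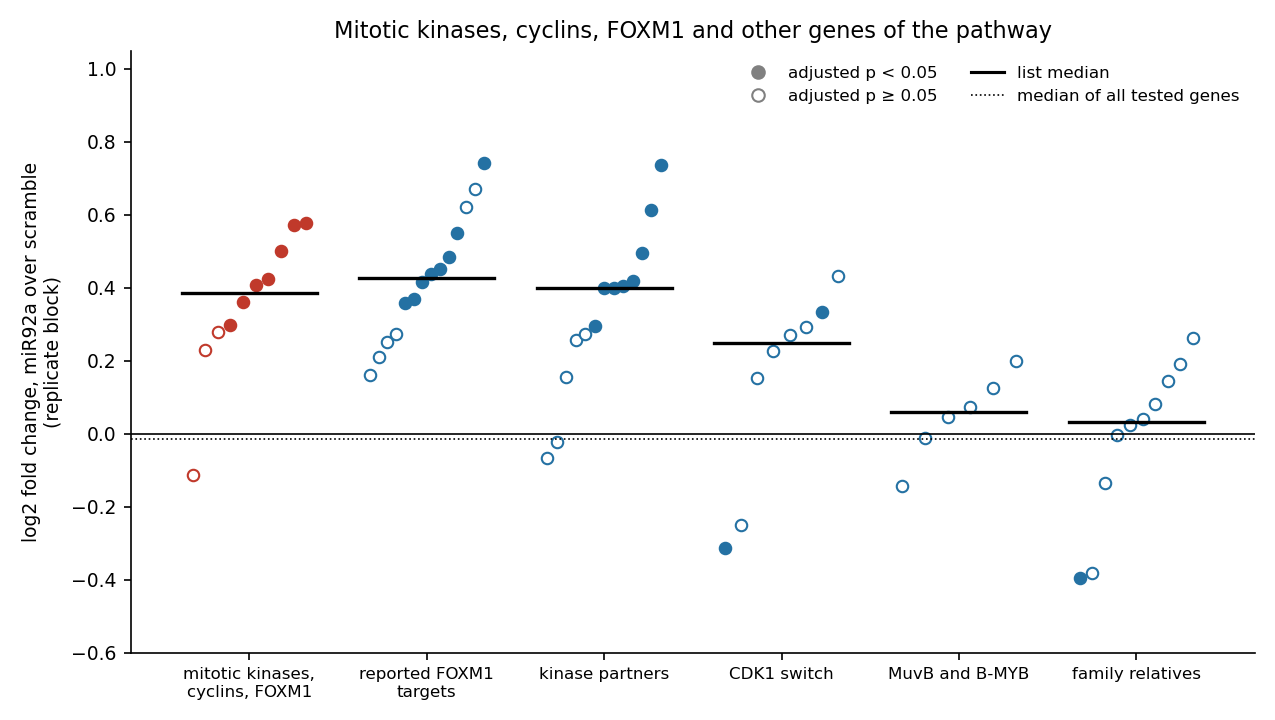
Log2 fold change of miR92a over scramble with the replicate block (vertical axis) for the 10 genes (red) and 5 lists of the same pathway (blue), filled where the adjusted p was under 0.05, with list medians as black lines and the median of all tested genes dotted. Medians lie at 0.38 for the 10 genes, 0.43 for reported FOXM1 targets and 0.40 for kinase partners, and at 0.06 and 0.03 for the MuvB and B-MYB genes and the family relatives.

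Promoters of the set are shown because genes of G2 phase commonly carry 2 kinds of element. These are a cell cycle genes homology region, searched here as TTTGAA, which MuvB complexes contact, and CCAAT boxes, which NF-Y binds. RefSeq promoter sequences (GRCh38.p14, 250 bases before to 50 after the start) were matched by symbol for 7 of the 10 genes, CDK1 and AURKB with 2 starts each; AURKA, TTK and FOXM1 had no entry. On both strands TTTGAA was found in 15.2% and CCAAT in 34.6% of all 35116 such promoters, and no matches overlapped in these genes. Among the 14969 promoters of tested genes the shares were 10.7% and 34.6%. These shares are per promoter, whereas the counts of genes that follow take any start of a gene. CCAAT was present in all 7 genes and TTTGAA in 3, PLK1, CDK1 and CCNB2. In PLK1 and CCNB2 the TTTGAA began 29 bases before the start, downstream of a CCAAT box at 73 and 54 bases. At the second start of CDK1 it began 69 and 13 bases before the start, with CCAAT boxes on the opposite strand at 78 and 46 bases and a further TTTGAA on the opposite strand 10 bases past the start. The first CDK1 start had a TTTGAA and a CCAAT box 161 and 150 bases before it. NEK2, the gene on the lower side, had CCAAT boxes at 66 and 34 bases before its start and no TTTGAA in the window, as was also so for CCNB1, CCNA2 and AURKB, which rose with the block. No other spelling of the homology region was searched, so a promoter without TTTGAA is not shown to lack that element. A match is a description of the letters, and binding was not measured.

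Below are the CCNB2 promoter (chr15:59104896-59105195, plus strand), which holds both motifs, and the NEK2 promoter (chr1:211675572-211675871, minus strand), which holds CCAAT alone. They are followed by the windows around TTTGAA in PLK1 (chr16:23678848-23678877) and CDK1 (chr10:60778397-60778426 and chr10:60778453-60778482), all on the plus strand. Capitals mark motif letters, on either strand in the promoters and for the named motif in the windows.
CCNB2 promoter: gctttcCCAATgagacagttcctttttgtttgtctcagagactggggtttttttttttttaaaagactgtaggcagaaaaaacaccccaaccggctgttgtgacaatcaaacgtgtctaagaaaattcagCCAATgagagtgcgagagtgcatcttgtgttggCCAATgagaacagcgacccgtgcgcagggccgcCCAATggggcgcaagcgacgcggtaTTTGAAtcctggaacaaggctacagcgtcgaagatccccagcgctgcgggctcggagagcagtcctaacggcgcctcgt
NEK2 promoter: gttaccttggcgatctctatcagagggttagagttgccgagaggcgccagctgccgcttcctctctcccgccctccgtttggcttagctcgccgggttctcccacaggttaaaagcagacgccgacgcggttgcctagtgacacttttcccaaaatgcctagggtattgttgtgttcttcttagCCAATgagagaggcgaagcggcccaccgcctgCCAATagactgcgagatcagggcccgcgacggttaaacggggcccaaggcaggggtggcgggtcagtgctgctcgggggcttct
PLK1 window: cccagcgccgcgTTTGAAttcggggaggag
CDK1 first window: ctgattggctgcTTTGAAagtctacgggct
CDK1 second window: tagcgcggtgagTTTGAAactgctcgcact
In the CCNB2 promoter 4 CCAAT boxes precede the TTTGAA, and in the NEK2 promoter 2 CCAAT boxes stand without it.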

How the data were processed

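Gene expression was measured in 3 miR92a and 3 scramble libraries of K562 cells. Paired-end reads of total RNA were quantified by the authors with kallisto, per the labels' protocols, and per the submitters' processing notes the build was GRCh38. The values are expected counts per gene symbol, deposited as whole numbers and not scaled. The kallisto version, transcript annotation, strand setting and gene summing are not given in the sources used here. Each count column was assigned to its sample by the name that the labels give.

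The edgeR package (4.0.16, R 4.3.3) served for the filter (filterByExpr), TMM scaling and the quasi-likelihood test between groups, with Benjamini-Hochberg adjustment over all 14543 genes and a threshold of 0.05. The SE was the size of the log2 fold change divided by the square root of F. Log2 CPM used a prior count of 2. The code was tested on simulated data. Same-numbered libraries are taken as pairs, although the labels do not state the pairing. Their deviations from group means correlated at 0.154, 0.160 and 0.420 for replicates 1, 2 and 3 over all tested genes. Crossed libraries correlated at 0.09 (miR92a 1 with scramble 2) and 0.0993 (miR92a 2 with scramble 1). Crossed values that involve a replicate 3 library ran from -0.328 to -0.169. Replicate 3 was thus clearly set apart, whereas the pairing within replicates 1 and 2 rests on a small margin. A fit with that number as a block is therefore given beside the unblocked one. Libraries of a group were compared by chi-square over genes with 50 counts or more in sum, and none agreed within sampling noise (1.81 to 48.4 per gene).

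The genes and lists were chosen with earlier results of these data known. Named genes are the 10 of the set and, per list, up to 4 called in either fit, largest first, or the 2 with the highest mean CPM. Seed matches and lengths used GENCODE v29 with Python 3.11.15 and pandas 2.3.3, and figures matplotlib 3.10.9. Alternatives were DESeq2 1.42.0, limma-voom (limma 3.58.1), other scalings and filters, the block, and leaving out libraries or pairs.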

Additional observations from a re-analysis of the deposited data

How the results depend on the processing

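No gene of the set passed under RLE scaling, scaling by totals, no filter on low counts, a filter at a mean of 1 CPM, limma-voom or with any 1 library left out (adjusted p = 0.143 to 1.00 over the 6 such fits, edgeR), and none reversed its direction under any alternative run. With DESeq2 2 of the 10 were called higher, and with the replicate block 7, or 5 to 7 with 1 pair left out. Every 10-gene median stayed positive, between 0.231 without scramble 3 and 0.478 with the block without pair 1. Of the pathway lists 1 gene was called higher (0 to 1 with a library left out), 5 with DESeq2, 2 without a filter, 17 with the block and 16, 14 and 18 with the block and pair 1, 2 or 3 left out; 0 were called lower, against 2 with the block and 0 to 2 with the block and 1 pair left out. Over all genes 63 were higher and 142 lower, with DESeq2 141 and 247, with the block 664 and 975, with 1 library left out 14 to 53 and 56 to 148, and with the block and pair 1, 2 or 3 left out 486, 285 and 554 higher and 751, 549 and 866 lower. Fits without a pair use fewer libraries, and the cause of the other differences was not tested. Depth limits miR92a 1, where the 10 genes rest on 32 to 215 counts each.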
